A study of Mus musculus with 2 samples.

Results

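The genes followed were 9 members of the hepatic methionine cycle and its methyltransferases: Mat1a, Mat2a, Gnmt, Nnmt, Inmt, Pemt, Ahcy, Bhmt and Cbs. They were taken as a list of symbols, and all 9 were among the 32285 genes measured in both single-cell RNA libraries of mouse liver. The DDC and cMet library held cells of mice after 5 months of DDC with cMet delivered by HTVi (hydrodynamic tail vein injection), of genotype Sox9-CreERT2:Rosa26-mTmG, in which Sox9 drives an inducible Cre and Cre switches a fluorescent reporter, pooled with cells of WT mice at day 0. The DDC library came from Sox9-EGFP mice given the DDC diet for 2 weeks, in which EGFP reports Sox9 promoter activity, again pooled with WT mice of day 0. Each time had 2 mice, the strain label in both was C57BL/6J;129S6/SvEvTac, and all cells were labelled primary hepatocytes obtained by liver perfusion. DDC blocks haem synthesis and injures bile ducts, and cMet is the hepatocyte growth factor receptor. Age, sex and the promoter of the cMet construct are not given in the sources used here, and barcodes do not tell day-0 mice from treated mice. Each group is therefore 1 library or a set of cells of 1 library, so no p-value can be given, and cMet, time, diet length, genotype and library cannot be told apart.

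The methionine cycle turns methionine into S-adenosylmethionine, the methyl donor of the cell, and recovers the homocysteine that is left after the methyl group is used. Adult hepatocytes make S-adenosylmethionine with the enzyme encoded by Mat1a, while most other cells and dividing cells use the one encoded by Mat2a. Methyl groups are spent by Gnmt on glycine, by Pemt on phosphatidylethanolamine, by Nnmt on nicotinamide and by Inmt on indolethylamines such as tryptamine. Ahcy then splits S-adenosylhomocysteine, Bhmt returns homocysteine to methionine with betaine, and Cbs commits homocysteine to cysteine synthesis. On GRCm38 (GENCODE) the 2 synthases lie at chr14:41105035-41124412 on the plus strand (Mat1a) and chr6:72432799-72439558 on the minus strand (Mat2a). The other members are all on the minus strand: Gnmt at chr17:46725664-46729168, Pemt at chr11:59970614-60046489, Nnmt at chr9:48591877-48605153, Inmt at chr6:55170626-55175043, Ahcy at chr2:155059310-155074497, Bhmt at chr13:93616675-93637961 and Cbs at chr17:31608894-31637238. UMIs were counted per gene.

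Promoters are shown for Inmt, which had the largest ratio between libraries among the members, and for Mat2a, whose log2 ratio was 0.13. The sequences are from RefSeq on build GRCm38.p6, run from 250 bases before to 50 after the start, and lie on the minus strand at chr6:55174941-55175240 for Inmt and chr6:72439507-72439806 for Mat2a. Capitals mark TATAAA boxes and, in Mat2a, a CCAAT box read on the opposite strand.
Inmt: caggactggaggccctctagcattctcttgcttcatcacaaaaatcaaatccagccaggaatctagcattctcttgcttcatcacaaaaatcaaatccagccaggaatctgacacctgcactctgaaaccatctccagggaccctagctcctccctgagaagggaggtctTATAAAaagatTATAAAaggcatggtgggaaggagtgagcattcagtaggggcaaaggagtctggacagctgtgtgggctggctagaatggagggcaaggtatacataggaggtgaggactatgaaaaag
Mat2a: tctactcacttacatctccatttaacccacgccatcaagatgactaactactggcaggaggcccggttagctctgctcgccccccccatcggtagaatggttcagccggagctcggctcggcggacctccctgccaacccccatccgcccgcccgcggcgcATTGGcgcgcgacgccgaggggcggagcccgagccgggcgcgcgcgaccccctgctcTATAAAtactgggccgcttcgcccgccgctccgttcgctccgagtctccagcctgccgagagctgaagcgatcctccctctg
The Inmt window held 0 CpG dinucleotides and 2 TATAAA boxes, and the Mat2a window held 34 CpG dinucleotides, 1 CCAAT box and 1 TATAAA box. Of 32851 mouse promoters of this length, the median held 7 CpG and 7.73% held at least 34. TATAAA was in 13.6% of those promoters and CCAAT in 37.4%, on either strand. Neither window held CACGTG or the clock motif TTANNTAA, which were in 7.15% and 6.00% of promoters on either strand. RefSeq promoters were also matched for Gnmt, Ahcy, Bhmt, Pemt and Cbs. Nnmt and Mat1a are named only.

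A barcode was kept when it had 500 genes or more, 2000 UMIs (unique molecules) or more and no more than 30% mitochondrial UMIs. These were 8099 of 18316 barcodes in the DDC and cMet library and 2903 of 8694 in the DDC library. Alb-high cells, with at least 100 Alb UMIs per 10,000 and under 10 per 10,000 of genes of other cell classes, numbered 4831 and 1662, with median depths of 22135 UMIs in the DDC and cMet library and 37049 in the DDC library. Their summed hepatocyte markers were 923 and 797 per 10,000, macrophage markers 1.26 and 0.795, and biliary and progenitor markers 6.16 in the DDC and cMet library and 34.0 in the DDC library. The libraries shared 50 barcodes, 4 of them among kept cells.

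Between the libraries, Inmt and Nnmt stood far above the other members. Inmt was at 1.99 UMIs per 10,000 in Alb-high cells of the DDC and cMet library (24369 UMIs; 95% interval 1.97 to 2.02) and at 0.0375 in those of the DDC library (225 UMIs; 0.0327 to 0.0427). This is a ratio of 53.2, or 5.73 on the log2 scale (5.54 to 5.93). Nnmt was at 0.607 in the DDC and cMet library (7427 UMIs) and 0.0285 in the DDC library (171 UMIs), a log2 ratio of 4.41 (4.20 to 4.64). Of 13256 genes measured, 0.106% had a log2 ratio as high as that of Inmt and 0.294% as high as that of Nnmt, each counted with the member itself. All intervals are exact and cover counting error only, not the spread between cells, mice or libraries.

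Mat1a, the hepatocyte synthase, was at 11.9 per 10,000 in the DDC and cMet library and 5.40 in the DDC library, a log2 ratio of 1.14 (1.12 to 1.15). Gnmt, which uses S-adenosylmethionine in excess, was at 10.1 in the DDC and cMet library and 5.76 in the DDC library, a log2 ratio of 0.81. Mat1a was thus higher in the DDC and cMet library by more than 2-fold and Gnmt by less. Ahcy, the hydrolase of S-adenosylhomocysteine, was at 0.275 in the DDC and cMet library and 0.0813 in the DDC library, a log2 ratio of 1.76. The remaining members were close between libraries. Bhmt was at 11.3 in the DDC and cMet library and 9.11 in the DDC library, and Pemt at 2.93 and 2.51. Mat2a was at 0.991 in the DDC and cMet library and 0.906 in the DDC library, and Cbs at 1.83 and 1.77.

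A gene was counted as different at 2-fold or more with at least 50 UMIs over both groups. The members were chosen with earlier results of these data known. Here and below, their counts and medians beside those of all genes are therefore descriptions and no test of the list. Of the 9 members, 4 were 2-fold or more higher in the DDC and cMet library (Inmt, Nnmt, Ahcy and Mat1a), where 5.61% of all genes were, and 0 were 2-fold or more lower, where 11.8% of genes were. The members' median log2 ratio was 0.81, against -0.27 over all genes. Centred on that median, higher genes made up 52.2% of the genes past 2-fold in place of 32.3%, and Gnmt also passed. Cbs was above 0 (0.05) as pooled, but was at -0.02 with an Alb minimum of 200 and at -0.07 with cells thinned to equal depth.

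**Figure D1:**
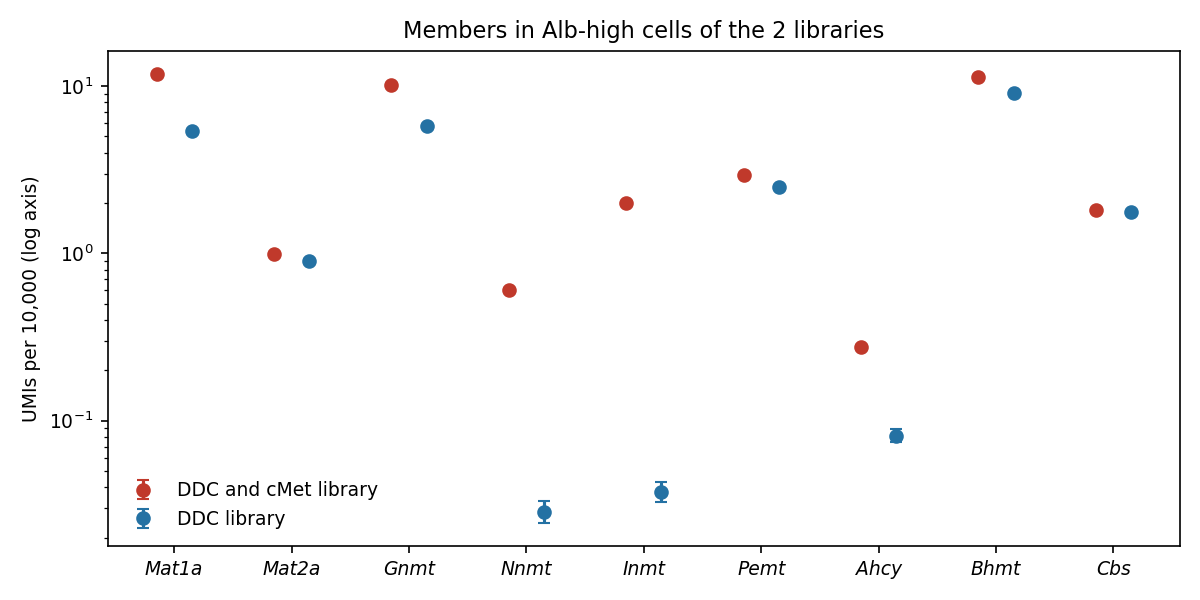
UMIs per 10,000 (log axis) of the 9 members in Alb-high cells of the DDC and cMet library (4831 cells) and the DDC library (1662 cells); bars are 95% Poisson intervals and are hidden by the points where short. Inmt and Nnmt have the widest gaps, 1.99 against 0.0375 and 0.607 against 0.0285, and Mat2a and Cbs the narrowest.

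Genes outside the list also differed between the libraries. Dbp, an output of the circadian clock, was at 1.71 per 10,000 in the DDC and cMet library and 0.0478 in the DDC library (log2 5.16). Cyp4a12a and Cyp7b1, which in mice are expressed more in male than in female liver, had log2 ratios of 3.50 and 1.73. Ddx3y, a Y-linked gene, had 0.732 in the DDC and cMet library and 0.816 in the DDC library, and Xist was represented by 14 and 11 UMIs. Cdkn1a, a p53 target, and Hspb1, a small heat shock protein, had log2 ratios of -3.31 and -3.42. The part of time of day, hormonal state or injury in the Inmt and Nnmt ratios was not tested.

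The share of cells with a UMI followed the same order when each cell was thinned to 2000 UMIs. Inmt was seen in 26.2% of Alb-high cells of the DDC and cMet library (25.0% to 27.5%) and 1.26% of those of the DDC library (0.784% to 1.93%). Nnmt was seen in 11.3% and 0.722%, and without thinning the Inmt shares were 69.4% in the DDC and cMet library and 6.20% in the DDC library. In macrophage-marker cells, which should lack these hepatocyte transcripts, the thinned Inmt shares were 2.32% in the DDC and cMet library and 0.260% in the DDC library, and the Nnmt shares 2.09% and 0.260%. Median depths of macrophage-marker cells were 12943 UMIs in the DDC and cMet library and 19478 in the DDC library.

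Hepatocyte transcripts were also counted in macrophage-marker cells, at a low and similar fraction for the abundant members. In macrophage-marker cells of the DDC and cMet library, Mat1a, Gnmt, Bhmt, Pemt, Cbs and Inmt were at 6.00% to 6.99% of their level in Alb-high cells, near Alb at 5.80%. In the DDC library, Mat1a, Gnmt, Bhmt, Pemt and Cbs were at 6.37% to 8.17%, and Alb at 4.02%. The fractions were less even for the sparse members: Nnmt was at 9.59% and Ahcy at 14.4% in the DDC and cMet library, and in the DDC library Inmt was at 33.8% (10 UMIs; 15.99% to 63.3%), Nnmt at 17.8% (4 UMIs) and Ahcy at 10.9% (7 UMIs). Mat2a was not low there: its level in macrophage-marker cells was 126% of that in Alb-high cells in the DDC and cMet library (120% to 132%) and 137% in the DDC library (127% to 146%).

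Within the DDC library the Inmt UMIs were concentrated in few cells. Cyp4a12a was used to split Alb-high cells that were not mitotic at 2 UMIs per 10,000, a split chosen after the data were seen. Median depths were 16295 UMIs in Cyp4a12a-high and 24550 in Cyp4a12a-low cells of the DDC and cMet library. In the DDC library they were 15685.5 and 37004, and how far depth sorted cells was not tested. There were 56 cells (3.37% of Alb-high cells, with 1.86% of their UMIs) that were Cyp4a12a-high in the DDC library, and they held 59.1% of its Inmt UMIs. Inmt was at 1.19 per 10,000 in Cyp4a12a-high cells of the DDC library (133 UMIs) and 0.0139 in Cyp4a12a-low cells (74 UMIs), a log2 ratio of 6.41 (5.99 to 6.84). With 1299 Cyp4a12a-high cells in the DDC and cMet library, Inmt there was at 1.79 in Cyp4a12a-high cells and 2.05 in Cyp4a12a-low cells. So both sides of the split had Inmt above 1 per 10,000 in the DDC and cMet library, and in the DDC library the Cyp4a12a-low side did not. Past 2-fold in the DDC and cMet library were Nnmt (1.21) and Gnmt (1.08), both higher in Cyp4a12a-high cells, where 2.53% of genes were higher and 8.99% lower.

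Compared between libraries within each side of the split, Inmt was at 1.79 in Cyp4a12a-high cells of the DDC and cMet library and 1.19 in those of the DDC library, a log2 ratio of 0.59 (0.34 to 0.85). In Cyp4a12a-low cells it was at 2.05 in the DDC and cMet library and 0.0139 in the DDC library, a log2 ratio of 7.20 (6.87 to 7.55). The Inmt level of 0.0139 (0.0109 to 0.0175) in Cyp4a12a-low cells of the DDC library was close to that of its macrophage-marker cells, 0.0127 (0.00607 to 0.0233). The ratios of 7.20 and 6.41 are thus set against a level close to that of macrophage-marker cells. The macrophage-marker value rests on 10 UMIs, at 33.8% of the Alb-high level, where Mat1a, Gnmt, Bhmt, Pemt and Cbs were at 6.37% to 8.17%. Whether it is a level of background counts was not tested. Nnmt differed on both sides, at 1.09 in the DDC and cMet library and 0.143 in the DDC library for Cyp4a12a-high cells (log2 2.93), and at 0.473 and 0.0249 for Cyp4a12a-low cells (log2 4.25). Mat1a had a log2 ratio of 0.44 in Cyp4a12a-high cells and 1.04 in Cyp4a12a-low cells. Among Cyp4a12a-high cells 2 of 9 members, Nnmt and Ahcy, were 2-fold or more higher in the DDC and cMet library, where 8.28% of genes were, and 0 lower, where 5.14% were. Among Cyp4a12a-low cells 4 of 9 were higher (Inmt, Nnmt, Ahcy and Mat1a), where 5.56% were, and 0 lower, where 10.3% were.

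The 56 Cyp4a12a-high cells of the DDC library also differed from Cyp4a12a-low cells in other members. Gnmt was at 15.4 per 10,000 in Cyp4a12a-high cells and 5.62 in Cyp4a12a-low cells (log2 1.46), and Mat1a at 10.6 and 5.60 (0.92). Mat2a was at 0.367 in Cyp4a12a-high cells and 0.866 in Cyp4a12a-low cells (-1.24; 41 and 4598 UMIs). These 6 members (Inmt, Nnmt, Gnmt, Ahcy, Cbs and, lower, Mat2a) were past 2-fold, where 6.44% of genes were higher and 19.8% lower. EGFP was at 0.0626 per 10,000 in Cyp4a12a-high cells and 0.773 in Cyp4a12a-low cells, and biliary and progenitor markers summed to 3.90 and 36.5. Whether the Cyp4a12a-high cells came from the day-0 mice was not tested, since barcodes carry no mouse.

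**Figure D2:**
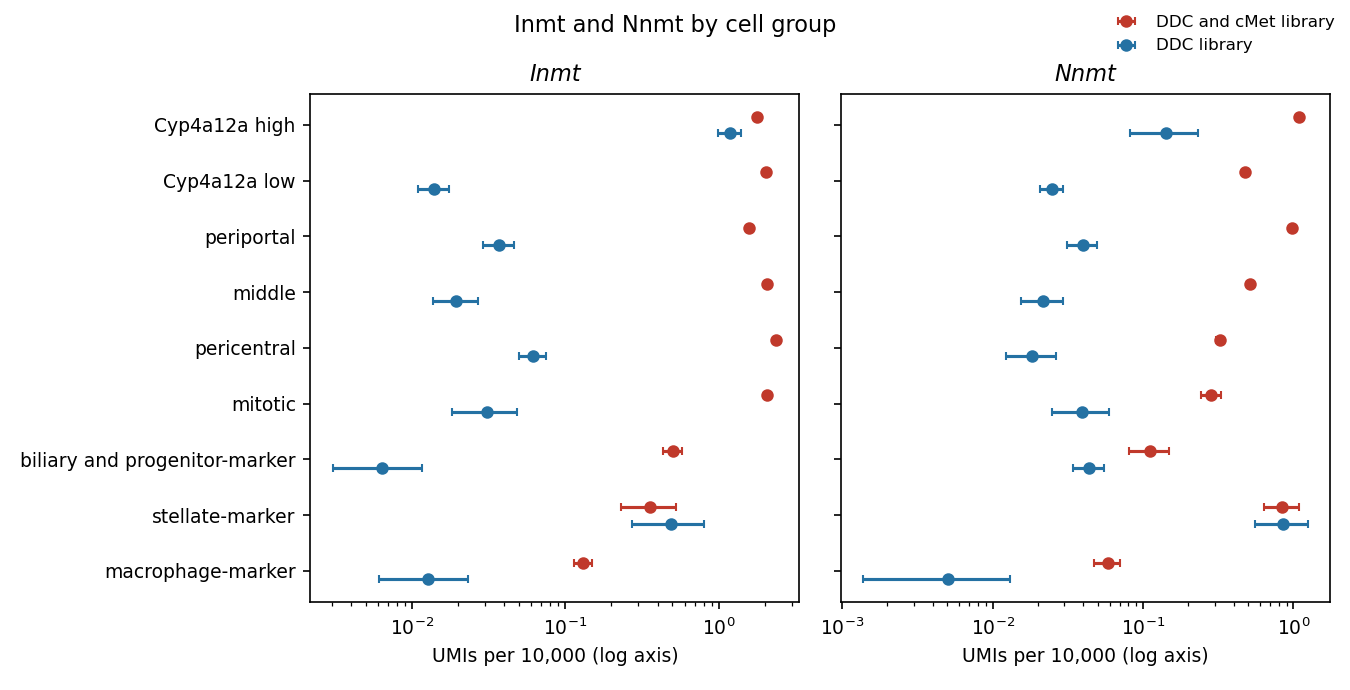
UMIs per 10,000 (log axis) of Inmt and Nnmt in 9 cell groups of the DDC and cMet library and the DDC library, with 95% Poisson intervals. Inmt of the DDC library is at 1.19 in Cyp4a12a-high cells and at or under 0.0612 in the hepatocyte groups below, and in stellate-marker cells both genes lie close in the 2 libraries.

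Inmt and Nnmt in single cells were compared at equal depth. At 10,000 UMIs per cell, 71.9% of 2840 non-mitotic cells of the DDC and cMet library had Inmt, 34.2% had Nnmt and 24.3% had both, where the product is 24.6%. Of 1237 such cells of the DDC library 2.83% had Inmt, 2.34% had Nnmt and 0.243% had both, where the product is 0.0663%. Nnmt was seen in 33.8% of cells with Inmt and 35.4% of cells without it in the DDC and cMet library, and in 8.57% and 2.16% in the DDC library, where few cells had either. The 10% of Alb-high cells with most Nnmt UMIs held 63.5% of them in the DDC and cMet library, against 46.4% for Inmt and 32.0% for Mat1a, with depth differing between cells. Such a share rises as a gene has fewer UMIs. These cells held 7427 Nnmt, 24369 Inmt and 145223 Mat1a UMIs, so the shares do not compare how evenly the genes were spread.

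Outside hepatocytes, stellate-marker cells held Nnmt at close levels in both libraries. Nnmt was at 0.838 per 10,000 in 44 stellate-marker cells of the DDC and cMet library (59 UMIs) and at 0.847 in 15 of the DDC library (26 UMIs). Inmt was at 0.355 (25 UMIs) and 0.488 (15 UMIs) in these cells. Both were above the Alb-high levels of the DDC library (0.0285 for Nnmt and 0.0375 for Inmt), while Mat1a had 3 UMIs in those 15 cells.

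The Mat1a to Mat2a balance, the ratio of their pooled UMIs, was 11.99 in Alb-high cells of the DDC and cMet library (145223 over 12117 UMIs; 11.8 to 12.2) and 5.97 in those of the DDC library (32446 over 5438 UMIs; 5.80 to 6.14). On the log2 scale these are 3.58 and 2.58, with Mat1a apart by 1.14 and Mat2a by 0.13 between the libraries. UMIs were counted at the 3′ end and were not divided by length, and capture can differ between 2 genes, so the balance compares cell groups and gives no ratio of molecules. At 10,000 UMIs per cell, the median non-mitotic cell had 12 Mat1a and 1 Mat2a UMIs in the DDC and cMet library, and 5 and 1 in the DDC library. Mat1a exceeded Mat2a in 97.6% of these cells in the DDC and cMet library and 83.9% in the DDC library, and Mat2a exceeded Mat1a in 1.69% and 7.03%.

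The cell groups named next had the same order of balance in both libraries. It was highest in Cyp4a12a-high cells, at 21.1 in the DDC and cMet library and 28.8 in the DDC library (21.1 to 40.4). Mitotic Alb-high cells were at 4.19 and 1.95, Alb-low cells at 2.26 and 1.49, and biliary and progenitor-marker cells at 1.49 and 0.900. Macrophage-marker cells were at 0.612 and 0.338, endothelial-marker cells at 0.490 and 0.171, and stellate-marker cells at 0.403 and 0.0400 (3 Mat1a UMIs). In the DDC and cMet library the endothelial-marker and stellate-marker groups have intervals that overlap, as do the 2 epithelial groups under 1 in the DDC library, biliary and progenitor-marker cells (0.845 to 0.958) and EGFP-high Alb-low cells (0.744 to 0.902). Alb-low cells and biliary and progenitor-marker cells were not made exclusive. These groups can share cells, so their values and intervals are not independent. The part of free RNA in the Mat1a counts of the groups under 1 was not tested.

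**Figure D3:**
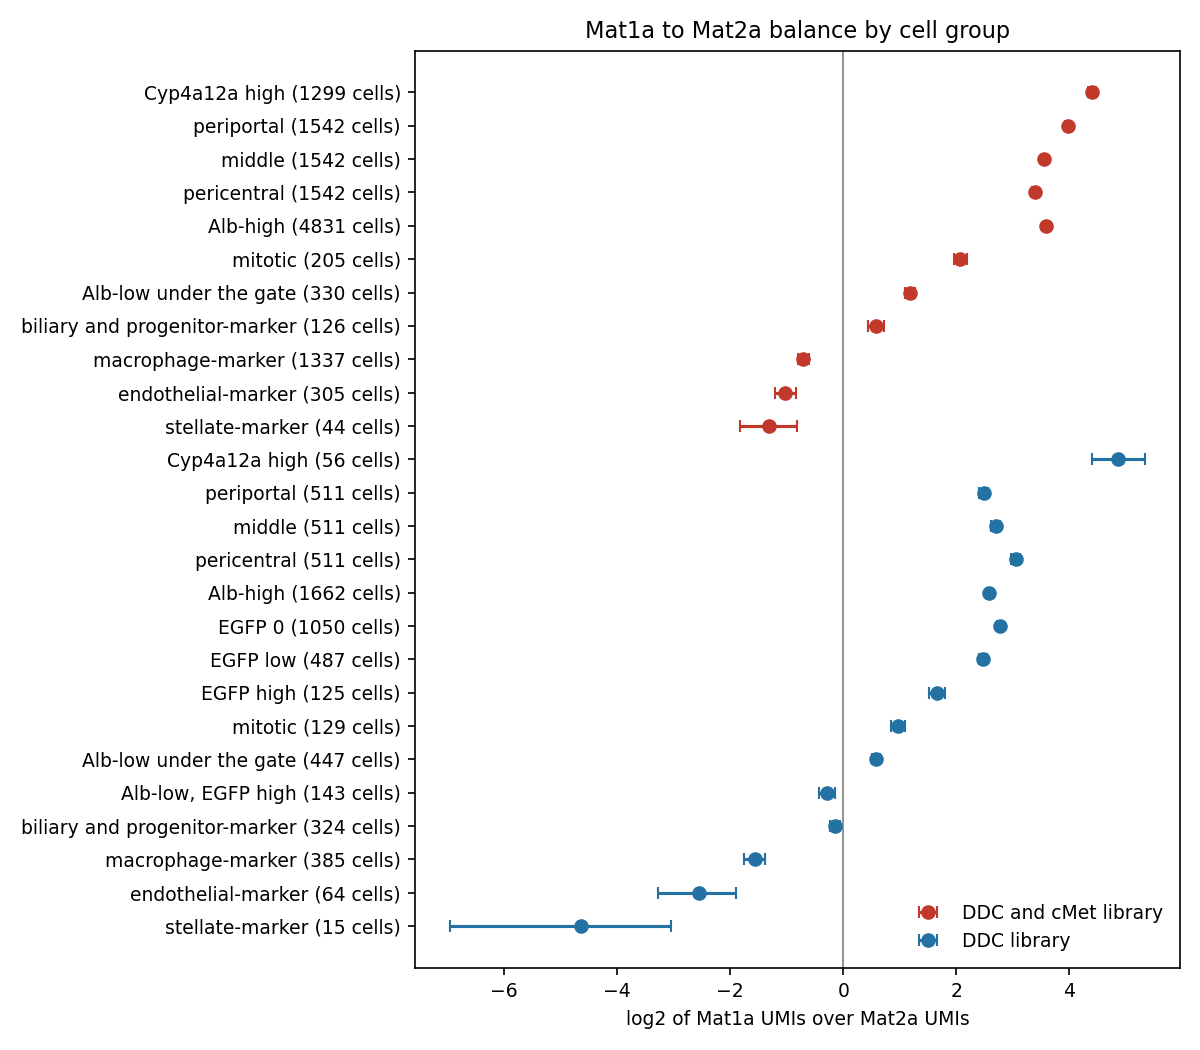
Log2 of Mat1a over Mat2a UMIs by cell group, the DDC and cMet library above and the DDC library below, with 95% binomial intervals; 0 marks equal counts. Hepatocyte groups lie right of 0 and macrophage, endothelial and stellate-marker groups left of it in both libraries, and Alb-high cells are at 3.58 in the DDC and cMet library and 2.58 in the DDC library.

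EGFP in the DDC library marks Sox9 promoter activity in cells of the diet mice. Its Alb-high cells comprised 1050 with no EGFP UMI, 487 with under 2 per 10,000 and 125 with 2 or more. Median depths were 28348 UMIs with no EGFP, 47157 with low and 44917 with high EGFP. How far depth sorted cells into these bins was not tested. The cells without EGFP may be of day-0 mice or of diet mice. Mat1a was at 6.20 per 10,000 with no EGFP, 4.86 with low and 3.11 with high EGFP, and Gnmt at 6.42, 5.49 and 3.10. Mat2a was at 0.912, 0.879 and 0.987, so the Mat1a to Mat2a balance was 6.80, 5.52 and 3.16. Pemt was at 2.61, 2.57 and 1.61. Bhmt was at 8.91, 9.55 and 8.30, and Cbs at 1.59, 1.96 and 1.97. Mat1a, Gnmt and Pemt were thus lowest with high EGFP, while Mat2a, Bhmt and Cbs differed less and Cbs was lowest with no EGFP.

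In EGFP-high over EGFP-0 cells the log2 ratio was -0.99 for Mat1a (-1.07 to -0.92), -1.05 for Gnmt (-1.12 to -0.98), -0.69 for Pemt, -0.10 for Bhmt, 0.11 for Mat2a (-0.02 to 0.25) and 0.31 for Cbs (0.21 to 0.41). Inmt had 1 UMI in EGFP-high cells and 174 in EGFP-0 cells (log2 -4.87; -10.18 to -2.37), and Nnmt had 4 and 94 UMIs (-1.98; -3.89 to -0.58). Ahcy was at 0.0458 in EGFP-high cells and 0.0934 in EGFP-0 cells (-1.03; 24 and 291 UMIs). Of the 9 members 4 were 2-fold or more lower in EGFP-high cells (Inmt, Nnmt, Gnmt and Ahcy), where 4.11% of genes were. None was 2-fold or more higher, where 4.47% were. Inmt and Nnmt were at 0.00191 and 0.00763 per 10,000 in EGFP-high cells. Macrophage-marker cells of this library had 0.0127 (10 UMIs) and 0.00507 (4 UMIs), so both ratios involve levels under or close to those. Whether they are background counts was not tested. The 56 Cyp4a12a-high cells held 133 Inmt UMIs of this library, and their part in the Inmt ratio was not tested. Centred on the median of all genes (0.11), higher genes made up 42.0% in place of 52.1% of the genes past 2-fold, and Mat1a also passed. Biliary and progenitor markers summed to 114 per 10,000 in EGFP-high cells and 14.0 in EGFP-0 cells, and their part in these ratios was not tested.

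The order by EGFP was similar for the abundant members in Alb-low cells outside the other classes' gates, in 162, 142 and 143 cells. These can include biliary and progenitor-marker cells. Mat1a was at 2.85 with no EGFP, 2.14 with low and 1.11 with high EGFP, and Gnmt at 2.04, 1.14 and 0.702. The balance was 2.50, 1.62 and 0.820. Nnmt did not step down, at 0.0290, 0.0115 and 0.0557, with the highest value in EGFP-high cells. Stellate markers summed to 2.43 there and 0.892 in EGFP-0 cells. Mat2a was also highest with high EGFP, at 1.14, 1.32 and 1.35. Without thinning, Inmt was seen in 1.23%, 0.704% and 4.90% of these cells, at median depths of 23312.5, 49098 and 49972 UMIs. With no Alb minimum, the Nnmt ratio of EGFP-high over EGFP-0 cells was 0.23 in place of -1.98 (43 and 107 UMIs).

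**Figure D4:**
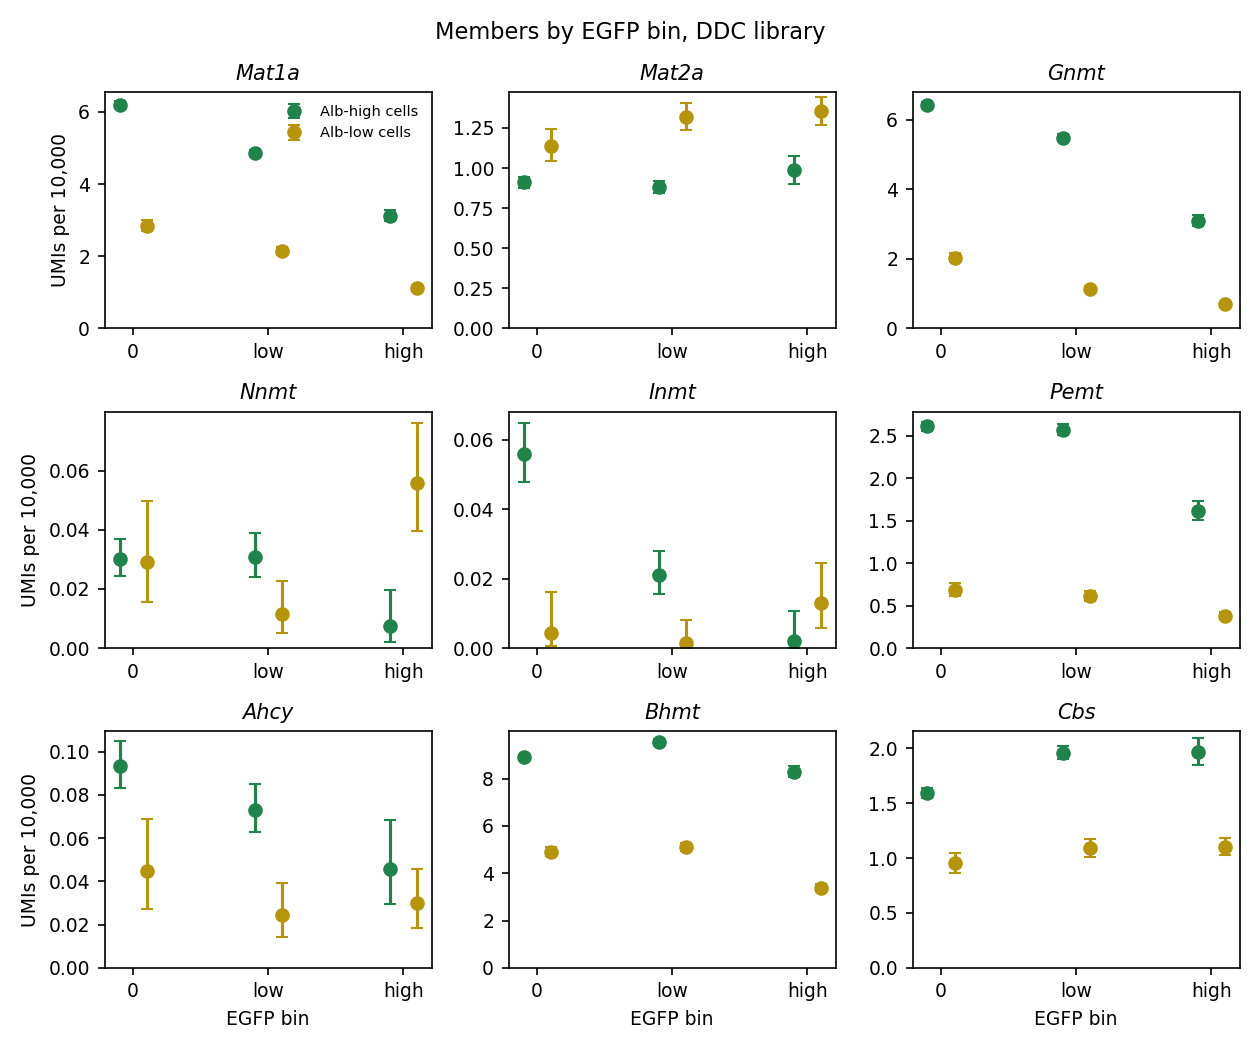
UMIs per 10,000 of each member by EGFP bin (0, low, high) in Alb-high and Alb-low cells of the DDC library, with 95% Poisson intervals and axes from 0. Mat1a and Gnmt step down with EGFP in both sets of cells, and Mat2a and Cbs do not. Pemt in Alb-high cells is close in the EGFP-0 and EGFP-low bins and lowest with high EGFP (1.61). Nnmt is highest in EGFP-high Alb-low cells (0.0557).

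Mitotic cells, with at least 3 UMIs per 10,000 and 3 genes of a mitosis list, numbered 205 in the DDC and cMet library and 129 in the DDC library. Median depths were 32036 UMIs in mitotic and 21799 in other Alb-high cells of the DDC and cMet library, and 46124 and 35873 in the DDC library. How far depth sorted cells into the mitotic group was not tested. The synthases lay on opposite sides of equality in both libraries. Mat1a was at 5.51 per 10,000 in mitotic cells and 12.2 in other Alb-high cells of the DDC and cMet library (log2 -1.15; -1.20 to -1.10), and at 2.67 and 5.70 in the DDC library (-1.10; -1.17 to -1.02). Mat2a was at 1.31 in mitotic cells and 0.973 in other cells of the DDC and cMet library (0.43; 0.33 to 0.54), and at 1.37 and 0.856 in the DDC library (0.68; 0.57 to 0.78). Bhmt was lower in both libraries, at 7.44 in mitotic cells and 11.5 in other cells of the DDC and cMet library (-0.62) and at 7.66 and 9.26 in the DDC library (-0.27).

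The methyltransferases, Ahcy and Cbs are given next, and no difference between the libraries was tested. Gnmt was at 5.44 in mitotic cells and 10.4 in other cells of the DDC and cMet library (-0.93), and at 5.26 and 5.82 in the DDC library (-0.15). Nnmt was at 0.283 in mitotic cells and 0.625 in other cells of the DDC and cMet library (-1.14), and had 23 and 148 UMIs in the DDC library (0.53; -0.17 to 1.17). Inmt was at 2.08 in mitotic cells and 1.99 in other cells of the DDC and cMet library (0.06; -0.02 to 0.14), and had 18 and 207 UMIs in the DDC library (-0.31; -1.09 to 0.39). Ahcy was at 0.188 in mitotic cells and 0.280 in other cells of the DDC and cMet library (-0.57), and at 0.118 and 0.0773 in the DDC library (0.61). Pemt had log2 ratios of 0.09 and -0.04, and Cbs of -0.31 and -0.15, in the DDC and cMet library and the DDC library. Of the 9 members, Mat1a and Nnmt were 2-fold or more lower in mitotic cells of the DDC and cMet library, where 4.68% of genes were, and Mat1a in the DDC library, where 4.18% were. None was 2-fold or more higher, where 5.09% and 4.45% were. Mitotic cells had lower periportal markers in the DDC and cMet library (25.2 per 10,000 against 40.2 in other cells), and in the DDC library they had fewer biliary and progenitor markers (17.4 against 35.8). The part of either in these ratios was not tested.

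Zonation was read from a score of periportal over pericentral genes, cut into 3 zones of 1542 cells in the DDC and cMet library and of 511 in the DDC library. From periportal to pericentral, median depths were 27789, 13124 and 19873 UMIs in the DDC and cMet library and 41554, 34693 and 30548 in the DDC library. Cbs and Nnmt were highest in the periportal zone of both libraries, and Pemt in the pericentral zone. Nnmt was at 0.985 per 10,000 in the periportal, 0.515 in the middle and 0.323 in the pericentral zone of the DDC and cMet library (log2 1.61; 1.52 to 1.70), and at 0.0397, 0.0217 and 0.0183 in the DDC library (1.12; 0.49 to 1.78). Cbs followed with 2.43, 1.62 and 1.41 per 10,000 in that order of zones in the DDC and cMet library (0.79) and with 2.01, 1.69 and 1.62 in the DDC library (0.31). Pemt ran the other way, with 2.23, 2.89 and 3.73 per 10,000 for the DDC and cMet library (-0.74) and 1.79, 2.61 and 3.31 in the DDC library (-0.89).

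Mat1a and Gnmt ran in opposite directions in the 2 libraries. Mat1a was at 13.4, 11.98 and 11.2 from periportal to pericentral in the DDC and cMet library (0.26; 0.24 to 0.28) and at 4.90, 5.37 and 7.07 in the DDC library (-0.53; -0.57 to -0.49). Gnmt had 13.2, 8.49 and 8.99 per 10,000 for the DDC and cMet library (0.55; 0.53 to 0.57) and 4.73, 5.67 and 7.37 in the DDC library (-0.64; -0.68 to -0.60). In the DDC library the periportal zone also held more EGFP (1.23 per 10,000 against 0.162 in the pericentral zone) and more biliary and progenitor markers (60.0 against 5.81), while in the DDC and cMet library those markers were at 8.80 and 2.59. Cyp4a12a-high cells were 669 of 1542 periportal and 302 of 1542 pericentral cells in the DDC and cMet library, and 27 and 21 of 511 in the DDC library. In the DDC and cMet library Gnmt was at 17.2 in Cyp4a12a-high and 8.15 in Cyp4a12a-low cells, and Mat1a at 14.4 and 11.5. Of the members highest in the periportal zone of both libraries, Nnmt was at 1.09 and 0.473 in these cells, and Cbs at 2.65 and 1.58. The part of these markers and cells in the zonation gradients of any member was not tested. The Mat1a to Mat2a balance accordingly was 15.6, 11.8 and 10.5 in the DDC and cMet library and 5.58, 6.47 and 8.26 in the DDC library.

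Inmt was at 1.58, 2.08 and 2.36 from periportal to pericentral in the DDC and cMet library (-0.57; -0.62 to -0.53) and at 0.0372, 0.0195 and 0.0612 in the DDC library (-0.72; -1.18 to -0.27). Cyp4a12a-high cells of the DDC library held 54 of 74, 18 of 36 and 61 of 97 of these UMIs, and with an Alb minimum of 200 the ratio was 0.98 (63 periportal and 28 pericentral UMIs). Ahcy had log2 ratios of 0.51 in the DDC and cMet library and -0.30 (-0.64 to 0.04) in the DDC library, Bhmt of 0.28 and 0.06, and Mat2a of -0.32 and 0.04. Only Nnmt of the 9 members was 2-fold or more higher in the periportal zone, in both libraries, where 2.13% of genes in the DDC and cMet library and 3.97% in the DDC library were. None was 2-fold or more lower, where 1.76% and 1.88% were. In the DDC library with an Alb minimum of 50 Nnmt was at 0.95 and Pemt at -1.06.

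**Figure D5:**
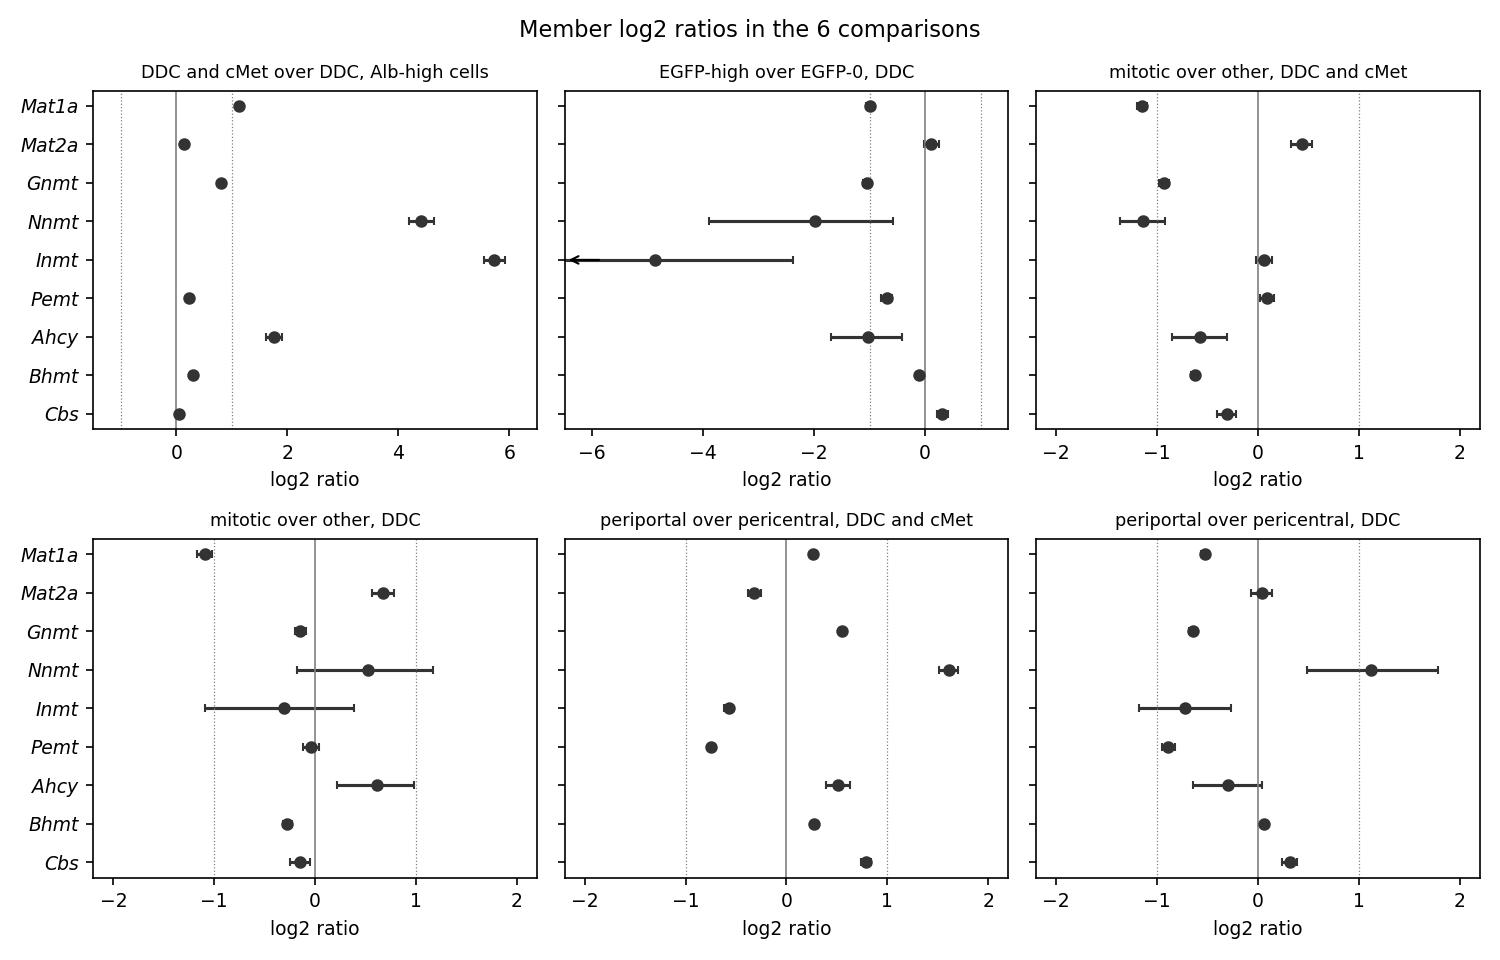
Log2 ratios of the 9 members in 6 comparisons with 95% intervals from counting error, the solid line at 0 and dotted lines at 2-fold; the arrow marks an Inmt interval that runs on to -10.18, and axes differ between panels. Mat1a is at -1.15 and -1.10 in mitotic cells of both libraries, and Mat1a and Gnmt lie on opposite sides of 0 in the 2 zonation panels.

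Ahcy reads have a near-identical target. The last 500 bases of an Ahcy transcript share 275 bases at 100% identity with Gm4737, which was counted as a gene of its own (GENCODE on GRCm38). Gm4737 was at 0.651 per 10,000 in Alb-high cells of the DDC and cMet library (7959 UMIs) and 0.0280 in those of the DDC library (168 UMIs), a log2 ratio of 4.54. There were 2.36 Gm4737 UMIs per Ahcy UMI in the DDC and cMet library and 0.344 in the DDC library. Summed, Ahcy and Gm4737 had a log2 ratio of 3.08 between libraries and of -0.83 in EGFP-high over EGFP-0 cells, so the sum was not past 2-fold in EGFP-high cells. How reads were divided between the 2 loci is uncertain, and so is every Ahcy value here. Bhmt shares 276 bases at 98.2% with Gm5096, which had 869 and 406 UMIs, and summing the pair left the Bhmt ratio between libraries at 0.31. Mat2a shares 227 bases at 95.2% with 6030443J06Rik, and Cbs 211 at 90.5% with Gm49492.

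Pathway genes outside the list were counted by the same rule, chosen like the members with earlier results known. Of 21 genes of the methionine and folate cycle outside the members, 1 was 2-fold or more higher in the DDC and cMet library and 2 lower, where 5.61% and 11.8% of all genes were, with a median log2 ratio of -0.01 against -0.27 over all genes. Sardh, which makes glycine from the sarcosine that Gnmt produces, was at 2.27 per 10,000 in the DDC and cMet library and 0.701 in the DDC library (log2 1.69). Mthfd2, a mitochondrial folate enzyme, was at 0.0221 in the DDC and cMet library and 0.0696 in the DDC library (-1.66). Of 10 genes around nicotinamide, Aox3, an aldehyde oxidase, was at 4.82 in the DDC and cMet library and 1.44 in the DDC library (1.74), Nampt, which salvages nicotinamide for NAD, was at 1.57 and 0.645 (1.29), and the other 8 were within 2-fold. None of 8 transsulfuration and taurine genes, 10 polyamine and salvage genes or 10 measured small-molecule methyltransferases was past 2-fold, with medians of 0.02, -0.50 and 0.19 against the same -0.27. Among 13 genes of DNA, RNA and protein methylation 1 was lower. This was Dnmt1, the maintenance DNA methyltransferase, at 0.0626 in the DDC and cMet library and 0.144 in the DDC library (-1.20).

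In EGFP-high over EGFP-0 cells, 1 of 21 methionine and folate genes and 1 of 8 transsulfuration genes were 2-fold or more lower, where 4.11% of all genes were, and none of the 6 lists had a gene past 2-fold higher. These were Sardh, at 0.403 per 10,000 in EGFP-high cells and 0.828 in EGFP-0 cells (-1.04), and Cth, which cleaves cystathionine after Cbs, at 0.716 and 1.57 (-1.13). In mitotic cells 3 of 21 methionine and folate genes of the DDC and cMet library and 2 of 21 of the DDC library were 2-fold or more higher, where 5.09% and 4.45% of all genes were. Among them Tyms, which makes thymidylate, was at 0.684 in mitotic cells and 0.107 in other cells of the DDC and cMet library (2.68) and at 0.554 and 0.115 in the DDC library (2.27). Of 13 genes of DNA, RNA and protein methylation 2 were higher in both libraries. These were Uhrf1, a partner of Dnmt1 and not itself a methyltransferase (2.42 and 3.48), and Ezh2, a histone methyltransferase (1.73 and 1.57). Of 10 small-molecule methyltransferases 1 was higher in both, Hnmt, which methylates histamine. It was at 0.951 in mitotic cells and 0.414 in other cells of the DDC and cMet library (1.20) and at 0.703 and 0.294 in the DDC library (1.26). Aox3 was lower in mitotic cells of both libraries (-1.42 and -1.25), the only 1 of 10 nicotinamide genes past 2-fold, and Csad was lower in those of the DDC library (-1.33), where 4.18% of all genes were 2-fold or more lower. Between the zones of the DDC and cMet library, 2.13% of all genes were 2-fold or more higher in the periportal zone and 1.76% lower. Gldc, of the glycine cleavage system, was at 1.10 in the periportal and 0.441 in the pericentral zone (1.32), 1 of 21 methionine and folate genes. Aox3, 1 of 10 nicotinamide genes, was at 7.15 and 3.40 (1.07). Csad, of taurine synthesis, was at 0.708 and 2.08 (-1.55), 1 of 8 in its list. Of the 13 methylation genes 1 was lower and is not reported here by name. In the DDC library none of these lists had a gene past 2-fold, where 3.97% of all genes were higher and 1.88% lower.

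Over 31 cell groups of both libraries and 9390 named genes, the genes with patterns most like Inmt by Pearson correlation of log2 levels were mt-Atp8 (0.957), Smim27 (0.953) and Upp2 (0.948). For Nnmt they were Tef (0.911), Smim27 (0.904) and Upp2 (0.894), and for Mat2a Rbbp6 (0.957), Cnot10 (0.950) and Tug1 (0.950). The groups overlap and share 2 libraries, so these are descriptions.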

How the data were processed

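Droplet single-cell RNA libraries (10x Chromium, v3 3′ chemistry) were read as the authors deposited them: un-normalized whole-number UMI counts for each gene in each barcode, with the lists of both as text. Cell Ranger 5.0.1 is named per the file headers. Seurat 4.0.1, build mm10 and a later Cell Ranger, 6.0.1, come from the submitters' processing notes. Which Cell Ranger version made the counts was not settled. The DDC and cMet library held 186997180 UMIs and the DDC library 104523363.

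Members and gene lists were chosen with earlier results of these data known. Members were named in every comparison, with up to 4 genes of each list by absolute log2 ratio and 3 genes most like Inmt, Nnmt and Mat2a (at least 500 UMIs in each library, pseudocount 0.01). Some genes of these lists are counted but not reported here by name. UMIs were pooled over a cell group and scaled to 10,000 without reporter features. Where 1 group had 0 UMIs, 3 UMIs over that group took their place. Intervals at 95% are exact Poisson for levels, exact conditional binomial for ratios and Clopper-Pearson for shares. Each group is 1 library, so there is no p-value. Other classes needed 3 markers, a marker sum of 10 per 10,000 and 3 times the next class. No doublet caller was run. Ratio intervals were checked on simulated Poisson counts, which hold no spread between cells, so the check covers the calculation only. Alternatives were the cell filter, Alb minimum, gates, weighting, depth, scaling and UMI minimum. The Cyp4a12a split and the sums with near-identical copies were chosen after seeing the data. Copies were sought with BLAST 2.17.0 (at least 90% identity over 200 bases). Figures used matplotlib 3.10.9, and tables pandas 2.3.3 with scipy 1.17.1 and numpy 2.4.6 under Python 3.11.15.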

Additional observations from a re-analysis of the deposited data

Results flagged for a closer look

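The mitotic, zonation and Cyp4a12a comparisons were made in both libraries. For 4 members the libraries gave log2 ratios of opposite sign in 1 of them, with counting intervals that both leave out 0. The difference between libraries was not tested, since each is 1 library. In mitotic over other Alb-high cells, Ahcy was at -0.57 in the DDC and cMet library and 0.61 in the DDC library. In periportal over pericentral cells, Gnmt was at 0.55 in the DDC and cMet library and -0.64 in the DDC library. Mat1a was at 0.26 in the DDC and cMet library and -0.53 in the DDC library. In Cyp4a12a-high over Cyp4a12a-low cells, Inmt was at -0.20 in the DDC and cMet library and 6.41 in the DDC library. The median over all genes in this comparison was -0.19 in the DDC and cMet library and -0.33 in the DDC library. In the DDC and cMet library 49.5% of genes had a ratio as low as that of Inmt, so its sign there is that of a typical gene. The Ahcy value in the DDC library rests on 69 UMIs in mitotic cells and, thinned to 2000 UMIs a cell, was -0.07 with 2 UMIs in mitotic cells. Another random draw at that depth had Ahcy in 6 of 129 mitotic cells (4.65%) and 24 of 1533 other cells (1.57%), so the thinned value depends on the draw. Ahcy reads may be divided with Gm4737, whose own values were -0.14 in the DDC and cMet library and 0.89 in the DDC library. In the DDC library biliary and progenitor markers were at 60.0 per 10,000 in periportal and 5.81 in pericentral cells. In the DDC and cMet library 669 periportal and 302 pericentral cells were Cyp4a12a-high. The part of either was not tested. Gnmt and Mat1a kept their signs in both libraries under all 13 zonation alternatives.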

How the results depend on the processing

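No paired analysis was possible because each group is 1 library. Over 684 alternative values of single members, 28 changed sign, and 4 of these had been past 2-fold. Of the 4, 3 are in EGFP-high over EGFP-0 cells thinned to 2000 UMIs, where 0 UMIs remained in EGFP-high cells and the floor of 3 UMIs sets the value: Inmt 0.26, Nnmt 1.20 and Ahcy 0.33. These counts depend on the random draw: another had Ahcy in 1 of 125 EGFP-high cells. The fourth is Nnmt with no Alb minimum, at 0.23. Between the libraries Inmt ranged over 4.52 to 6.10 and Nnmt over 3.77 to 4.69.

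Counts of members past 2-fold changed as follows. In EGFP-high over EGFP-0 cells there were 2 in place of 4 with thinning, and 2 with EGFP-high set at 1 per 10,000. For mitotic cells of the DDC library there were 0 in place of 1 with an Alb minimum of 50, and 2 as a mean over cells. For mitotic cells of the DDC and cMet library there was 1 in place of 2 with thinning. Between periportal and pericentral cells of the DDC library there were 0 in place of 1 with thinning and 2 with 10% of cells at each end, and in the DDC and cMet library 4 in place of 1 with 10% of cells at each end. The log2 balance in the DDC and cMet library (3.58) was 3.55 with the stricter filter, 3.51 and 3.66 with an Alb minimum of 50 and 200, 3.55 with no exclusion of other classes, 3.62 as a mean over cells and 3.62 with thinning. In the DDC library (2.58) it was 2.40 and 2.74 with an Alb minimum of 50 and 200, 2.84 as a mean over cells and 2.89 with thinning. The cause was not tested.

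Inmt, Nnmt and Ahcy had few UMIs in Alb-high cells of the DDC library (225, 171 and 488), so their ratios within it have wide counting intervals.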

Other observations

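The reporter feature tdTomato of the DDC and cMet library had 2 UMIs in all barcodes, 1 of them in an Alb-high cell, so cells were not grouped by lineage there.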
